A study of Homo sapiens with 6 samples.

Results

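The BCL2 family decides whether a cell commits to death through its mitochondria, and 10 of its genes were examined here as named in a fixed list: BCL2, BCL2L1, MCL1, BAX, BAK1, BBC3, PMAIP1, BCL2L11, BID and BAD. All 10 were found by symbol among the 57773 Ensembl genes of the count table, and all 10 passed the filter on low counts. The cells were U251, an established human glioblastoma line, made into 2 stable lines with lentivirus. The PD-L1 line overexpresses PD-L1, the immune checkpoint ligand that CD274 encodes and that the receptor PD-1 on T cells binds. The Vector line carries the control vector only, and both lines were at passage 5 to 10. Each line gave 3 dishes, whose total RNA was taken 12 h after the cells were passaged into DMEM with 10% serum, with no death stimulus named in the labels. Each line is a single transduced population as far as the labels say, so p-values measure the spread between its dishes. Poly-A RNA was sequenced, and the question was whether transcripts of the family differ between the lines.

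The family has members with opposing roles. The anti-apoptotic proteins BCL2, BCL-xL (from BCL2L1) and MCL1 hold the pore formers BAX and BAK (from BAK1) in check at the outer mitochondrial membrane. The BH3-only proteins PUMA (BBC3), NOXA (PMAIP1), BIM (BCL2L11), BID and BAD respond to stress and either occupy the anti-apoptotic proteins or activate BAX and BAK, after which cytochrome c leaves the mitochondrion and caspases are activated. In glioblastoma cells BCL-xL and MCL1 are known as survival factors. Much of the family's control acts on the proteins, by cleavage, phosphorylation and degradation, which transcript counts do not measure. Gene counts also do not separate the long and short splice forms of BCL2L1 and MCL1, which have opposing roles.

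Library depth was 15678989 to 22270509 counts per dish, at which 3 counts equal 0.138 to 0.185 CPM. CPM here are a gene's counts scaled to the dish's counts in tested genes times its TMM factor, which evens out differences in RNA composition between dishes. CD274 was at 1300 ± 61.4 CPM in PD-L1 dishes and 2.41 ± 0.970 CPM in Vector dishes (mean ± SD, n = 3 each). The glial and neural markers VIM, NES, SOX2, FABP7, OLIG2 and SLC1A3 were each present at a mean of at least 8.62 CPM in the Vector dishes. The other 4 were lower there, with GFAP at 3.18, S100B at 0.846, AQP4 at 0.299 and ALDH1L1 at 0.203 CPM. The summed level of the 10 glial and neural markers was 333 to 428 CPM in PD-L1 dishes and 545 to 622 CPM in Vector dishes. Of the 8 tested glial and neural markers 5 passed as lower (GFAP, NES, VIM, SOX2 and FABP7), against 7.2% of all tested genes. S100B (log2 fold change -0.50), OLIG2 (0.13) and SLC1A3 (0.08) did not pass. The 5 T-cell markers summed to 0.587 to 1.02 CPM over all dishes, with CD2 at 0 reads throughout. The 5 myeloid markers summed to between 1.17 and 1.76 CPM in the PD-L1 line and between 2.64 and 3.50 CPM in the Vector line, and the 4 endothelial markers with an identifier to 3.03 to 3.91 and 4.79 to 5.92 CPM. The 5 epithelial markers summed to between 16.0 and 22.6 CPM in the PD-L1 line and between 20.1 and 22.4 CPM in the Vector line. PD-L1 dish 3 stood apart from the other PD-L1 dishes, and without it 3512 genes passed the test described below in place of 1384. The part of these marker differences in the results below was not tested, and in bulk RNA fewer cells of a type and less RNA per cell cannot be told apart.

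None of the 10 members passed the test between the lines, against 8.75% of all 15818 genes tested (edgeR quasi-likelihood test, Benjamini-Hochberg adjusted p under 0.05). Of all genes, 1.55% (245) passed as higher and 7.2% (1139) as lower, or 881 as higher and 1354 as lower once GC content and length of the transcripts were corrected by an offset. Of the members, 2 had an unadjusted p under 0.05 in that test, BCL2L1 and PMAIP1, against 23.6% of all genes. With DESeq2, 1 member passed (BCL2L1, among 9.9% of genes), and with limma-voom 0 passed (among 8.61% of genes). The median log2 fold change of the members was 0.02, with 6 above and 4 below 0, beside 0.02 over all tested genes. Their median absolute log2 fold change was 0.11, beside 0.15 over all tested genes. Every member's 95% interval lay inside a 1.5-fold difference in either direction, so a change of that size between these lines lay outside the interval for each of the 10. In counts simulated for this comparison over 15818 genes, 80% of genes changed 1.5-fold were recovered. The simulation gave every gene the same dispersion and had no outlying dish, so this share need not hold for the members in the real dishes.

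**Figure D1:**
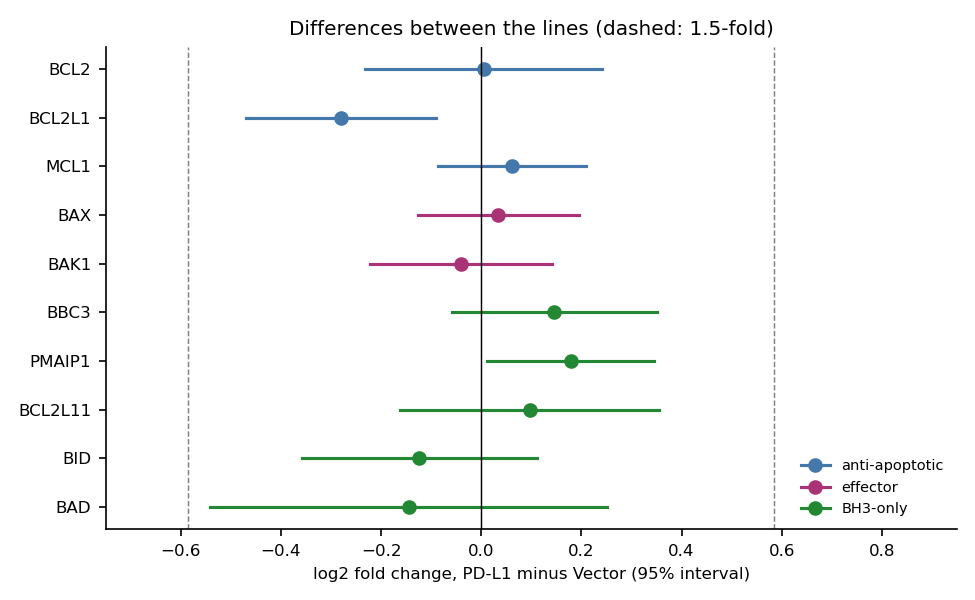
Log2 fold change (PD-L1 minus Vector, horizontal axis) of the 10 members, with points for the edgeR estimate, lines for its 95% interval, colours for the role of the protein and dashed lines at 1.5-fold. All 10 intervals lie between the dashed lines, and only those of BCL2L1 (-0.47 to -0.09) and PMAIP1 (0.01 to 0.35) leave out 0.

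The promoters of BCL2L1 and PMAIP1 are shown because these are the members with an unadjusted p under 0.05. Each run gives the 250 bases before the gene start on the gene's own strand, from RefSeq on GRCh38.p14, a build other than the hg19 of the counts. Capitals mark the letters GGGCGG (as in the GC box bound by SP1-type factors) and TATAAA (as in the TATA box), searched on both strands.
BCL2L1, chr20:31723964-31724213, minus strand: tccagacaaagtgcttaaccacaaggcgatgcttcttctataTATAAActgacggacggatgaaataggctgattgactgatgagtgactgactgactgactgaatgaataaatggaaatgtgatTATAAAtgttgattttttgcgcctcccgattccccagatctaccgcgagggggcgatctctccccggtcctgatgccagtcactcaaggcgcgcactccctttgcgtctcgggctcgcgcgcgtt
PMAIP1, chr18:59899746-59899995, plus strand: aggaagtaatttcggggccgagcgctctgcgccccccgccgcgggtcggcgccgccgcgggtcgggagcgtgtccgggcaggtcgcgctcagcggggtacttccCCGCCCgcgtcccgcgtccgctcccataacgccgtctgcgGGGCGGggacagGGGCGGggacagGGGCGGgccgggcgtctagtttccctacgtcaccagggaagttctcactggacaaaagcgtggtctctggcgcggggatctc
The windows differ in composition. PMAIP1 had 72.8% G and C with 4 matches to GGGCGG and 0 to TATAAA, while BCL2L1 had 50% G and C with 0 matches to GGGCGG and 2 to TATAAA. RefSeq windows matched 9 of the 10 members, the exception being MCL1. Of these 9, 6 held GGGCGG, as did 42.3% of all 27305 windows of this length, and 1 (BCL2L1) held TATAAA, as did 11.1%. The E-box CACGTG stood in 2 members (BAX and BBC3) and in 6.49% of all windows, and the cyclic AMP response element TGACGTCA in 0 members and 1.77%. No match of one of these motifs overlapped a match of another in the members. These are matches of letters anywhere in a window, whatever their distance from the gene start, and carry no measurement of binding.

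Scaled to length, the levels of the members spanned 1.201 to 113 CPM per kb. PMAIP1 had the highest level per kilobase of exon, at 88.8 to 113 CPM per kb over the 6 dishes. BAX followed at 63.7 to 72.5 and MCL1 at 57.8 to 63.8 CPM per kb, and the ranges of these 2 overlapped. BAK1 lay at 29.4 to 35.0, BCL2L1 at 17.6 to 24.4, BID at 10.2 to 14.3 and BBC3 at 6.95 to 8.74 CPM per kb, each range apart from the next. BCL2L11, at 2.70 to 3.76, and BAD, at 2.43 to 3.89 CPM per kb, overlapped. BCL2, the founding member of the family, was the lowest at 1.201 to 1.49 CPM per kb. With the longest transcript in place of all exons, BAX came before PMAIP1 and BAD before BCL2L11, with overlapping ranges in both pairs, and the other ranks stayed as they were. Exon lengths came from GENCODE 29, and the transcript in use in U251 is not known from gene counts, so distances between neighbours in this order depend on the length chosen.

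**Figure D2:**
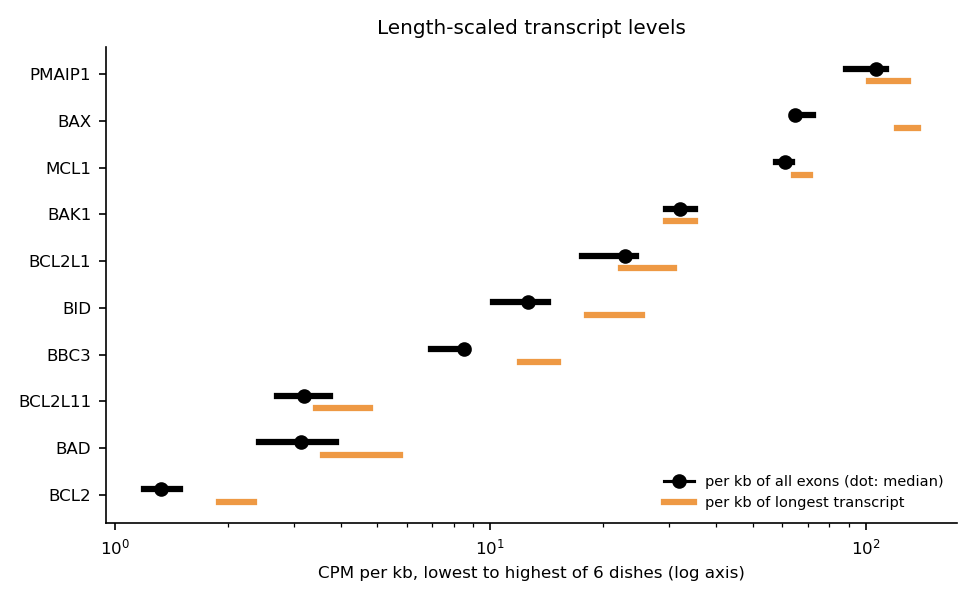
Levels of the 10 members as CPM per kilobase on a log axis, with bars from the lowest to the highest of the 6 dishes, black for the length of all exons (dot: median) and orange for the longest transcript. PMAIP1, BAX and MCL1 lie highest, and BCL2 lies lowest at 1.201 to 1.49 CPM per kb of exon.

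BCL2L1, an anti-apoptotic member, had the largest difference of the 10 in the edgeR fit of all 6 dishes without the GC and length offset. Its level was 58.2, 63.8 and 73.5 CPM in PD-L1 dishes 1 to 3 and 80.8, 78.6 and 78.0 CPM in Vector dishes 1 to 3. All PD-L1 dishes were below all Vector dishes, and PD-L1 dish 3 lay nearest to them. This 1.21-fold lower level (log2 fold change -0.28, SE 0.09) missed the threshold, as edgeR gave an adjusted p of 0.0668. An exact permutation of the 6 dishes (two-sided) gave p = 0.1, and no smaller p can be had from 3 dishes against 3. DESeq2 gave an adjusted p of 0.0481 and limma-voom 0.0626. Leaving out PD-L1 dish 3 moved the log2 fold change to -0.38 (adjusted p = 6.9e-04 in edgeR, where 21.6% of all genes passed). Leaving out PD-L1 dish 1 moved it to -0.20 (adjusted p = 0.309 in edgeR). The GC and length offset gave -0.20 with an adjusted p of 0.0290, where 14.1% of genes passed, and without the filter on low counts -0.30 with 0.0176, where 5.71% passed.

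MCL1, a short-lived protein and the most abundant member by CPM, was at 279, 268 and 269.7 CPM in PD-L1 dishes 1 to 3 and at 253, 264 and 266 CPM in Vector dishes 1 to 3. Its groups did not overlap, but the gap between PD-L1 dish 2 and Vector dish 3 was small beside the spread within each group. On the log2 scale MCL1 differed by 0.06 (95% interval -0.09 to 0.21), with an adjusted edgeR p of 0.634. In all, 3 members (BCL2L1, MCL1 and PMAIP1) had groups of CPM values that did not overlap, against 27.6% of all tested genes.

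BCL2 itself was at 15.9, 16.4 and 14.9 CPM in PD-L1 dishes 1 to 3 and at 14.1, 15.4 and 17.5 CPM in Vector dishes 1 to 3. The PD-L1 values fell inside the range of the Vector values. The means were 15.7 ± 0.764 and 15.7 ± 1.73 CPM, and the 95% interval of the difference ran from -0.23 to 0.24 on the log2 scale (adjusted p = 0.985, edgeR).

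**Figure D3:**
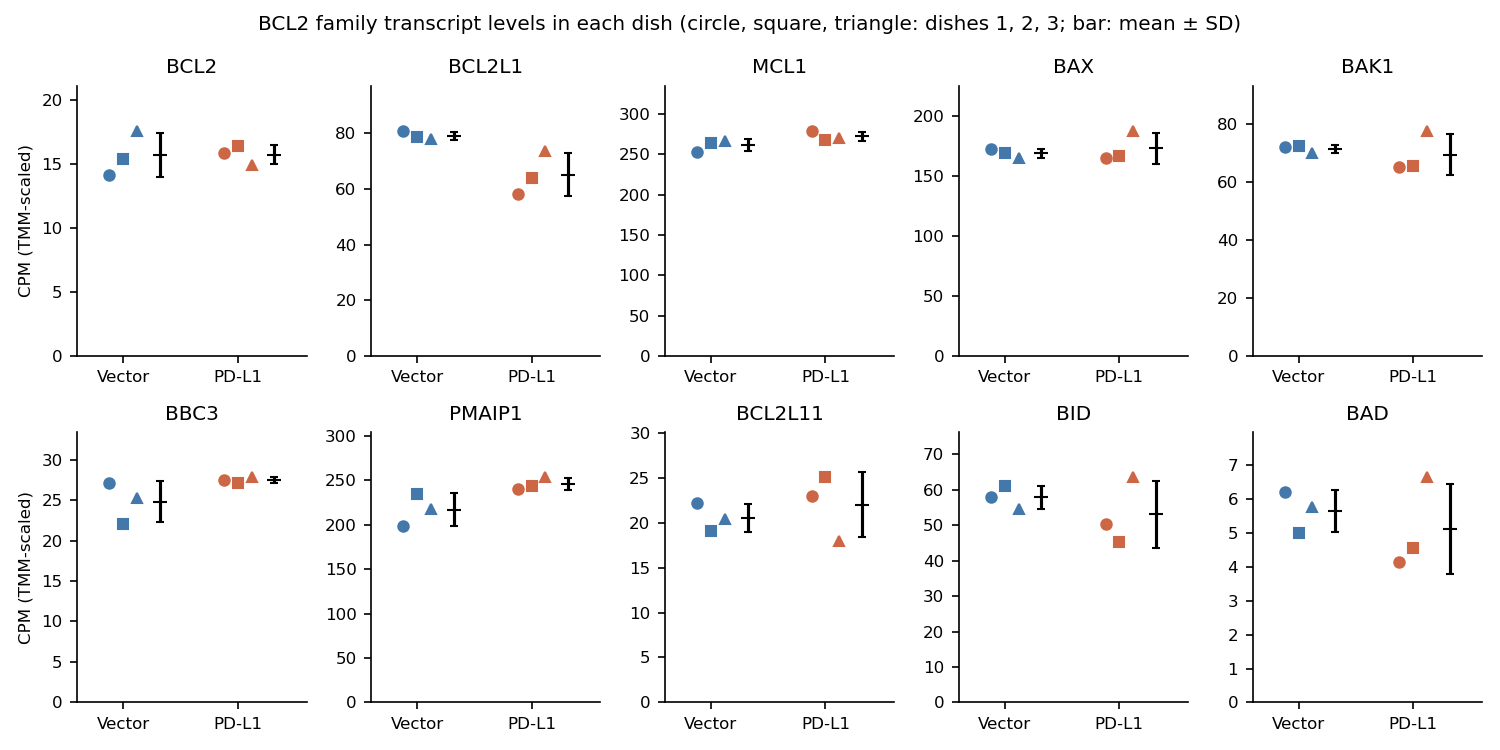
CPM of each member (vertical axes from 0) in the Vector and PD-L1 dishes, with circles, squares and triangles for dishes 1, 2 and 3 of each line and black bars for the mean ± SD. BCL2L1 is lower in all 3 PD-L1 dishes (58.2 to 73.5 CPM) than in all 3 Vector dishes (78.0 to 80.8 CPM), while BAX, BAK1, BID and BAD overlap between the lines with PD-L1 dish 3 on top.

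Both pore formers overlapped between the lines. BAX was at 165, 166 and 187 CPM in PD-L1 dishes 1 to 3 and at 173, 169 and 165 CPM in Vector dishes 1 to 3. PD-L1 dish 3 was the highest of the 6 and the other 5 dishes lay close together. BAX differed by 0.03 ± 0.07 (SE) on the log2 scale (adjusted p = 0.825, edgeR). BAK1 was at 65.0, 65.5 and 77.5 CPM in PD-L1 dishes 1 to 3 and at 71.9, 72.4 and 69.8 CPM in Vector dishes 1 to 3. The Vector dishes lay between PD-L1 dishes 1 and 2 below and PD-L1 dish 3 above. Its log2 fold change was -0.04 ± 0.08 (adjusted p = 0.813, edgeR), and it was 0.05 with the GC and length offset. BAK1P1, a processed pseudogene of BAK1, took 10 to 22 counts per dish against 1063 to 1562 for BAK1.

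Of the BH3-only members, PMAIP1 had the largest difference in the edgeR fit of all dishes without the GC and length offset. NOXA, its product, binds MCL1 and promotes its degradation. PMAIP1 was at 240.1, 244 and 253 CPM in PD-L1 dishes 1 to 3 and at 198, 234 and 218 CPM in Vector dishes 1 to 3. All PD-L1 dishes were above all Vector dishes, and the Vector dishes were spread more widely (SD 18.1 against 6.67 CPM). PMAIP1 was 1.13-fold higher in PD-L1 dishes (log2 fold change 0.18 ± 0.08, SE), with an adjusted edgeR p of 0.179 and an exact permutation p of 0.1. With the GC and length offset the log2 fold change was 0.05 (adjusted p = 0.605), and without Vector dish 1 it was 0.12 (adjusted p = 0.538).

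BBC3 was at 27.5, 27.1 and 27.8 CPM in PD-L1 dishes 1 to 3 and at 27.2, 22.1 and 25.2 CPM in Vector dishes 1 to 3. PUMA, its product, binds all anti-apoptotic members. The PD-L1 dishes sat together at the top of the Vector range, just overlapping Vector dish 1. BBC3 differed by 0.15 ± 0.10 on the log2 scale, with an adjusted edgeR p of 0.383. BBC3 had the highest GC content of the members, 69.7% in its longest transcript, and with the GC and length offset its log2 fold change was 0.31 with an adjusted p of 0.0316. Without the offset, leaving out Vector dish 2 gave a log2 fold change of 0.07.

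BID, which links death receptors to mitochondria once caspase-8 has cut it, was at 50.5, 45.2 and 63.4 CPM in PD-L1 dishes 1 to 3 and at 57.9, 61.1 and 54.6 CPM in Vector dishes 1 to 3. PD-L1 dishes 1 and 2 were below every Vector dish and PD-L1 dish 3 was above every one. BID had a log2 fold change of -0.12 ± 0.11 (adjusted p = 0.528, edgeR). Leaving out PD-L1 dish 3 gave -0.27 (adjusted p = 0.0172), and leaving out PD-L1 dish 2 gave -0.02 (adjusted p = 0.947).

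BCL2L11 was at 23.0, 25.0 and 18.0 CPM in PD-L1 dishes 1 to 3 and at 22.2, 19.1 and 20.4 CPM in Vector dishes 1 to 3. BIM, its product, is repressed by ERK signalling and can activate BAX directly. PD-L1 dish 3 was the lowest of the 6 here and the other PD-L1 dishes were the highest. BCL2L11 differed by 0.10 ± 0.12 on the log2 scale (adjusted p = 0.669, edgeR), by 0.22 without PD-L1 dish 3 and by 0.0016 without PD-L1 dish 2. In GENCODE 29, 10.9% of its exon length is shared with MIR4435-2HG on the opposite strand, a noncoding RNA with 242 to 488 counts per dish that passed as lower (log2 fold change -0.43, adjusted p = 0.0203, edgeR). The NEBNext Ultra kit leaves strand unmarked, and reads of the 2 genes in the shared stretch cannot be told apart.

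BAD, a BH3-only protein that growth-factor kinases inactivate, was at 4.15, 4.56 and 6.64 CPM in PD-L1 dishes 1 to 3 and at 6.21, 4.99 and 5.76 CPM in Vector dishes 1 to 3. PD-L1 dishes 1 and 2 were the lowest and PD-L1 dish 3 the highest of the 6. It had the widest interval of the members, with a log2 fold change of -0.15 (95% interval -0.54 to 0.25; adjusted p = 0.677, edgeR), on 74 to 135 counts per dish. Leaving out PD-L1 dish 3 gave -0.38 (adjusted p = 0.122), and leaving out PD-L1 dish 1 gave -0.0060. GPR137, on the opposite strand, shares 23.7% of its exon length and had 669 to 1145 counts per dish.

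Among the PD-L1 dishes, dish 3 was the highest for 7 members and the lowest for BCL2 and BCL2L11. The 7 were BCL2L1, BAX, BAK1, BID and BAD, and by smaller margins BBC3 and PMAIP1. Relative to the Vector mean, the members' median was -0.01, 0.01 and 0.13 on the log2 scale in PD-L1 dishes 1 to 3. The coefficient of variation among PD-L1 dishes was 11.8% for BCL2L1, 10.2% for BAK1, 17.7% for BID and 26.1% for BAD, against 1.90%, 1.89%, 5.59% and 10.97% among Vector dishes. Across the 10 members, which share each dish's library, Pearson's r between transcript GC content and the log2 level relative to the Vector mean was -0.44, -0.39 and 0.32 in PD-L1 dishes 1 to 3 and 0.75, -0.68 and -0.15 in Vector dishes 1 to 3. The part of GC content in the differences of single members was measured only through the offset given above.

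**Figure D4:**
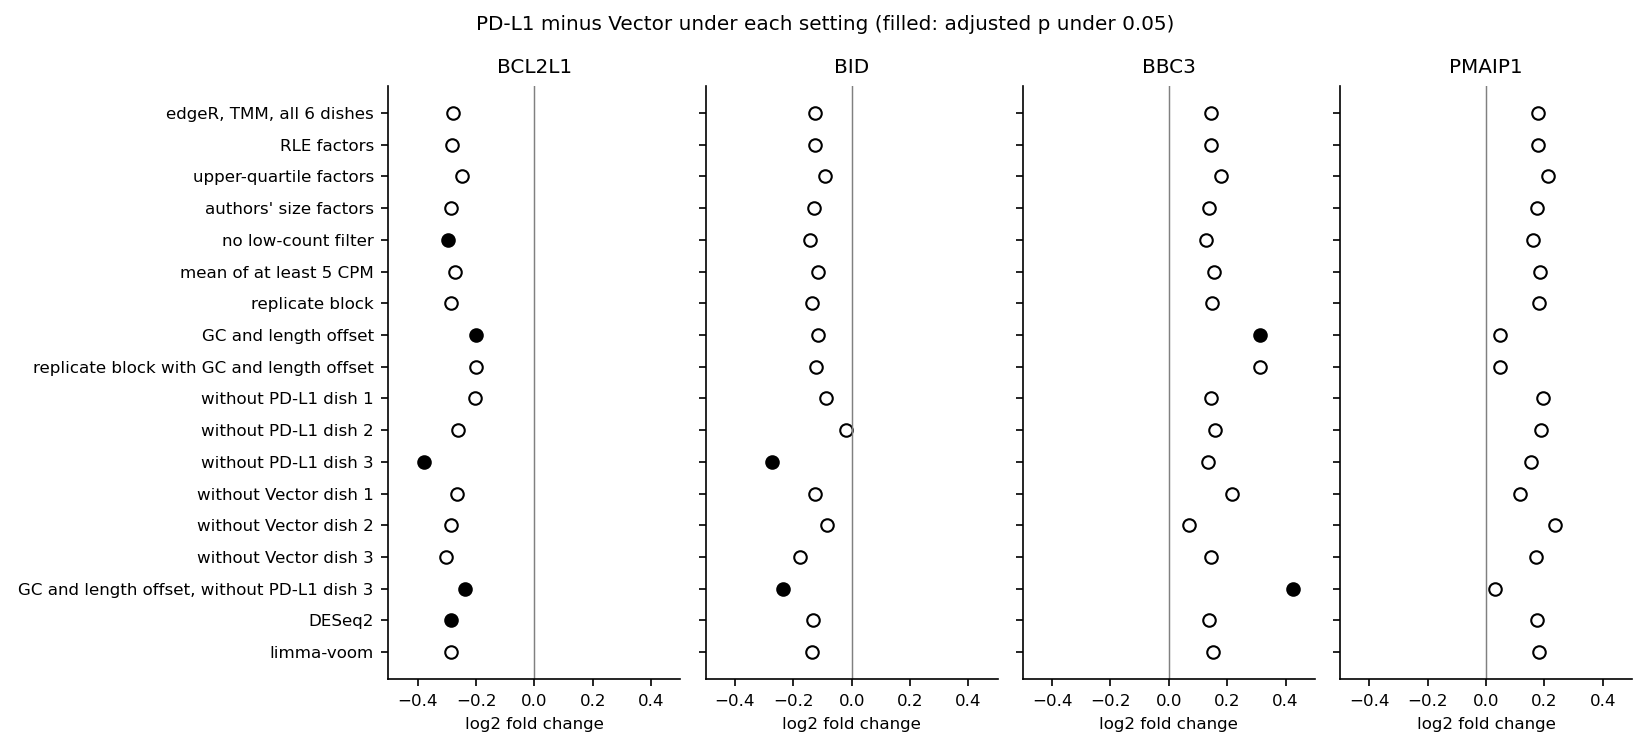
Log2 fold change (PD-L1 minus Vector, horizontal axes) of BCL2L1, BID, BBC3 and PMAIP1 under each setting of the comparison (rows), with filled points where the adjusted p was under 0.05. BCL2L1 lies below 0 in every row shown (-0.38 to -0.20), BID is called in the 2 fits without PD-L1 dish 3, and PMAIP1 in none.

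The ratio of pore formers to anti-apoptotic members is often used as a summary of this family. Within each dish 4 ratios were taken from raw counts. They were BAX to BCL2, to BCL2L1 and to MCL1, and BBC3, a BH3-only gene, to MCL1. Scaling between dishes cancels in such a ratio and gene length cancels in its difference between the lines, but a single ratio still depends on the lengths of the 2 genes, so its sign does not rank their levels. The log2 ratio of BAX to BCL2L1 was 1.502, 1.38 and 1.35 in PD-L1 dishes 1 to 3 and 1.10, 1.10 and 1.08 in Vector dishes 1 to 3. All PD-L1 dishes lay above all Vector dishes, PD-L1 dish 3 included. The difference was 0.32 on the log2 scale, with group means of 1.41 ± 0.08 and 1.09 ± 0.01 (SD, n = 3 each). The exact two-sided permutation test gave p = 0.1, the smallest the design allows, and 0.4 adjusted over the 4 ratios. When each dish was left out in turn the difference stayed between 0.27 and 0.35.

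The other 3 ratios overlapped between the lines. BAX to BCL2 differed by 0.02 (3.46 ± 0.17 in PD-L1 and 3.43 ± 0.19 in Vector dishes, exact permutation p = 0.9). BAX to MCL1 differed by -0.03 (-0.66 ± 0.12 and -0.63 ± 0.07, exact permutation p = 0.8). BBC3 to MCL1 differed by 0.09 (-3.31 ± 0.03 and -3.40 ± 0.18, exact permutation p = 0.6). Adjusted over the 4 ratios, the exact permutation p of each of these was 0.9.

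**Figure D5:**
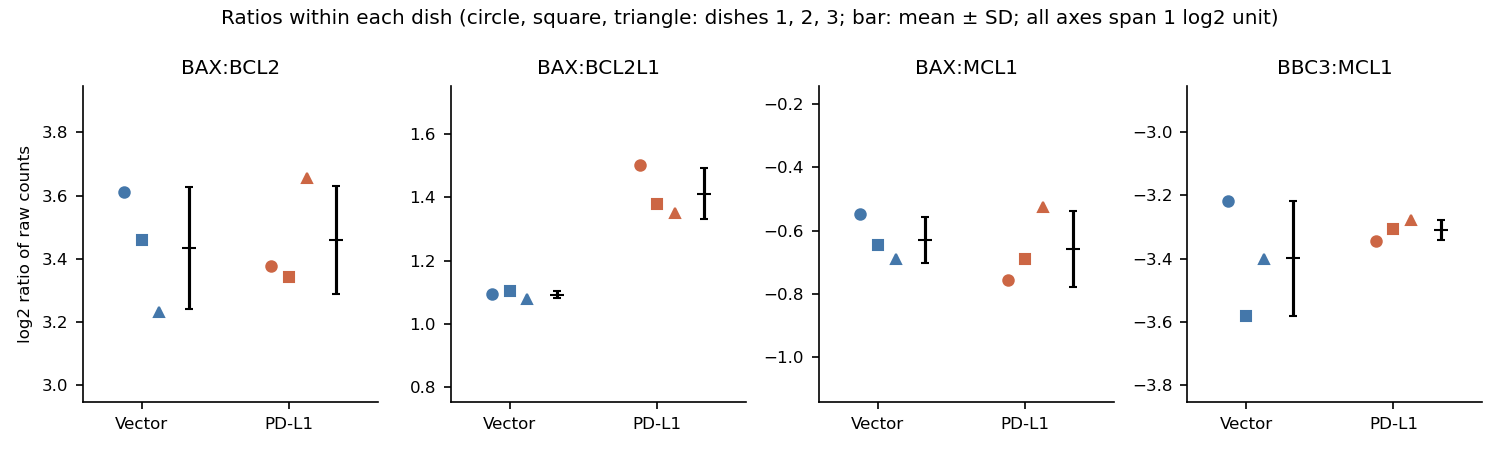
Log2 ratios of raw counts within each dish for 4 pairs of members, with circles, squares and triangles for dishes 1, 2 and 3, black bars for the mean ± SD and every vertical axis spanning 1 log2 unit. BAX to BCL2L1 lies at 1.35 to 1.502 in PD-L1 and 1.08 to 1.10 in Vector dishes, and the other ratios overlap.

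The makeup of the family was described by the share of each role in the summed CPM per kb of the 10 members. The 5 BH3-only members made up 43.1, 43.3 and 42.6% in PD-L1 dishes 1 to 3 and 39.1, 41.7 and 40.7% in Vector dishes 1 to 3. PMAIP1 alone contributed 34.6 ± 0.73% in PD-L1 and 31.6 ± 1.89% in Vector dishes, so this share follows mainly 1 gene. The 3 anti-apoptotic members made up 26.7, 26.5 and 25.4% in PD-L1 dishes and 27.8, 27.1 and 28.1% in Vector dishes, and the pore formers 30.1, 30.3 and 32.05% and 33.1, 31.1 and 31.2%. BCL2L1 contributed 6.17 ± 0.46% and 7.79 ± 0.31%. These shares sum to a fixed total within a dish, so they do not move independently, and they carry no test.

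The rest of the family was examined in a list of 13 further genes, 9 of which passed the filter on low counts. Among these 9, 1 rose and 0 fell, and the median log2 fold change was -0.10. For this list and those below, 8.75% of all tested genes passed in the same edgeR fit. HRK, a BH3-only gene best known from neurons, rose from 23.8 ± 0.825 to 29.6 ± 1.92 CPM (log2 fold change 0.31 ± 0.09, adjusted p = 0.0438, edgeR). It was at 29.2, 31.7 and 27.9 CPM in PD-L1 dishes 1 to 3 and at 23.7, 23.1 and 24.7 CPM in Vector dishes 1 to 3, with no overlap. The call ended when any dish other than PD-L1 dish 3 was left out (adjusted p from 0.110 to 0.194), with DESeq2 (0.0568) and without the filter on low counts (0.0739). BNIP3, a hypoxia-induced mitophagy receptor with a BH3-like stretch, had a mean of 83.3 ± 17.8 CPM in the PD-L1 line and 97.4 ± 16.5 CPM in the Vector line (adjusted p = 0.409, edgeR). BCL2L12 and BMF, a BH3-only gene, were chosen after their values were seen and had log2 fold changes of -0.28 (adjusted p = 0.0614) and 0.45 (adjusted p = 0.0825). BCL2L12 shares 33.1% of its exon length with IRF3 on the opposite strand, so part of its reads cannot be assigned with certainty. BCL2A1, BCL2L10, BCL2L14 and BCL2L15 stayed under 1 CPM in every dish, BCL2L10 with 0 reads.

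Downstream of the family, 0 of 12 genes of the apoptosome and of mitochondrial release passed, with a median log2 fold change of 0.10. The most abundant of them, CYCS (cytochrome c), had a mean of 515 ± 53.7 CPM in the PD-L1 line and 576 ± 38.0 CPM in the Vector line (adjusted p = 0.293). AIFM1, the apoptosis-inducing factor, stood at 199 ± 7.81 and 172 ± 4.77 CPM (adjusted p = 0.0824 in edgeR and 0.0139 with the GC and length offset). Of the inhibitor of apoptosis genes, 0 of 5 tested passed in edgeR, with a median of 0.13. XIAP, which blocks caspases directly, was at 161 ± 20.9 and 129.6 ± 9.56 CPM, with an adjusted edgeR p of 0.0553. Its groups overlapped, with PD-L1 dish 3 at 137.8 and Vector dish 3 at 138.9 CPM. XIAP passed with DESeq2 (0.0344), upper-quartile scaling (0.0339), no filter on low counts (0.0117) and the GC and length offset (0.0032). It did not pass with limma-voom (0.0652), relative log expression factors (0.0590) or the authors' size factors (0.0627). Nor did it pass in edgeR when any dish other than PD-L1 dish 3 was left out (0.0806 to 0.251). BIRC6 had a log2 fold change of 0.05 (adjusted p = 0.811).

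In the death receptor list 1 of 12 tested genes rose and 2 fell, with a median of 0.04. CASP10, an initiator caspase, rose from 5.92 ± 0.630 to 8.61 ± 0.637 CPM (log2 fold change 0.54 ± 0.14, adjusted p = 0.0258, edgeR). TNFRSF1A, the main receptor of tumour necrosis factor, fell from 103 ± 7.47 to 82.4 ± 9.89 CPM (adjusted p = 0.0453), and its adaptor TRADD fell from 21.5 ± 2.72 to 16.1 ± 2.27 CPM (adjusted p = 0.0490). The CASP10 call ended when dish 1 or 2 of PD-L1, or dish 1 or 3 of Vector, was left out (adjusted p from 0.0947 to 0.122). The TNFRSF1A and TRADD calls ended without any dish other than PD-L1 dish 3 (0.0667 to 0.223 and 0.0621 to 0.255) with upper-quartile scaling (0.0627 and 0.0615) and with a minimum mean of 5 CPM (0.0608 and 0.0643). That of TRADD ended also with relative log expression factors (0.0536), with the authors' size factors (0.0529) and with limma-voom (0.0518).

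Of 16 genes for turnover or binding of the family's proteins, 0 rose and 1 fell, with a median of -0.04. That gene was SFN, which encodes 14-3-3 sigma, a member of the protein family that holds phosphorylated BAD in the cytosol. SFN was at 22.2, 22.6 and 38.8 CPM in PD-L1 dishes 1 to 3 and at 55.8, 54.5 and 45.4 CPM in Vector dishes 1 to 3, with no overlap and with PD-L1 dish 3 nearest to the Vector dishes. SFN had a log2 fold change of -0.90 ± 0.20 (adjusted p = 0.0275, edgeR), and the call ended without PD-L1 dish 1 (0.0672) or PD-L1 dish 2 (0.109). YWHAE, the most abundant 14-3-3 gene of the list, was at 1184 ± 56.1 and 1162 ± 47.3 CPM (adjusted p = 0.876).

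Among 16 genes listed as acting on transcription of the family, all of them transcription factor genes except TRIB3, 0 rose and 1 fell, with a median of -0.01. TP73, a transcription factor that can induce BBC3, was at 19.3, 18.9 and 21.3 CPM in PD-L1 dishes 1 to 3 and at 26.7, 24.6 and 26.3 CPM in Vector dishes 1 to 3, with no overlap. Its log2 fold change was -0.38 ± 0.09 (adjusted p = 0.0209, edgeR). The call ended with the GC and length offset (0.0761) and when dish 1 or 2 of PD-L1, or dish 1 or 3 of Vector, was left out (0.0689 to 0.101). TP73 shares 9.36% of its exon length with TP73-AS1 on the opposite strand. ATF4, which can induce PMAIP1 under stress, was at 1152 ± 93.0 and 1080 ± 43.3 CPM (adjusted p = 0.535). Of 10 partners at the outer mitochondrial membrane 0 passed, with a median of 0.04. TOMM20, an import receptor, was at 672 ± 14.9 and 568 ± 37.0 CPM, with no overlap (adjusted p = 0.0694, edgeR). It passed with DESeq2 (0.0191), upper-quartile scaling (0.0468) and the GC and length offset (0.0310). It did not pass with limma-voom (0.0571), or in edgeR when any dish other than PD-L1 dish 3 was left out (0.0867 to 0.297). VDAC1, a porin, was at 409 ± 17.6 and 444 ± 12.2 CPM (adjusted p = 0.353).

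The genes whose log2 CPM followed that of a member most closely over the 6 dishes were taken from 11395 genes with a mean of at least 5 CPM. For BCL2L1 they were PPDPF, OTUD5 and MAP3K6 (Pearson's r of 0.997, 0.996 and 0.996), of which PPDPF passed as lower (log2 fold change -0.37, adjusted p = 0.0327, edgeR). For PMAIP1 they were OTUD6B-AS1, ALDH7A1 and TRAFD1 (0.996, 0.995 and 0.994), and for MCL1 GLA, TEFM and ATP6V1H (0.999, 0.991 and 0.990). All points share the depth and scaling of 6 libraries and the difference between 2 lines, so these values describe likeness over few points. They are the highest values among 11395 genes. PPDPF was picked for following BCL2L1 in these dishes, so its lower level carries no separate evidence.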

How the data were processed

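Poly-A RNA of 6 dishes was sequenced, 3 per line, from 3 µg of RNA each. Per the submitters' processing notes, CASAVA 1.8, STAR 2.5.1b and HTSeq 0.6.0 were used with build hg19, with annotation and strand setting not given in the sources used here. Raw counts per Ensembl gene were deposited by the authors. The second deposited table holds normalized counts on a signal scale, which were found to be the raw counts divided by 1 factor per dish. Groups came from the sample titles.

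Of 57773 IDs, 51996 were named from a table of gene names. Raw counts were tested with edgeR 4.0.16 in R 4.3.3 (filterByExpr, TMM, robust glmQLFit and glmQLFTest, no covariates), with Benjamini-Hochberg adjustment over all 15818 tested genes. CPM values are TMM-scaled. Each standard error is the absolute log2 fold change over the square root of F. Alternatives were 3 other scalings (upper quartile, relative log expression, the size factors of the authors), DESeq2 1.42.0, voom (limma 3.58.1), other filters, a replicate block, a spline offset per dish on transcript GC and length ( 5 degrees of freedom), leaving out each dish, and an adjusted p under 0.01. The offset without PD-L1 dish 3 was added after seeing the data. GC content and length from GENCODE 29 covered 97.6% of tested genes and 98.1% of those that passed. The common biological coefficient of variation was 8.60%.

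In simulated counts for PD-L1 against Vector (15818 genes), 80% of genes changed 1.5-fold, 95.3% changed 2-fold and 100% changed 4-fold were recovered, and 5.21% of calls were false. The simulation gave every gene the same dispersion, had no outlying dish and placed no change in the genes of lowest level. These shares therefore describe the simulated setting and need not hold for the real dishes.

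The text names all 10 members, CD274 and detected markers. It names from each further list those that passed, up to 4, or otherwise up to 2 abundant ones, and the 3 genes most like BCL2L1, PMAIP1 and MCL1. The members and lists were chosen with earlier results of these data known. Dishes of a line differed by more than sampling noise (chi-square per degree of freedom of 3.04 to 16.1).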

Additional observations from a re-analysis of the deposited data

How the results depend on the processing

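The number of members that passed was 0 with edgeR and stayed 0 with the 3 other scalings, a minimum mean of 5 CPM, limma-voom, an adjusted p under 0.01 and the replicate block, with or without the offset (adjusted p of BBC3 0.0621 with both). It was 1 with DESeq2 and 1 without the low-count filter (BCL2L1), 2 with the GC and length offset (BCL2L1, BBC3), 3 with the offset and without PD-L1 dish 3 (BCL2L1, BBC3, BID), and 0 to 2 when each dish was left out, the 2 being BCL2L1 and BID without PD-L1 dish 3. Same-numbered dishes did not deviate together (r of -0.47, -0.18 and -0.47 for numbers 1 to 3), so the numbers give no pairing; with the replicate block 1447 genes passed in place of 1384, and 1389 with the block and the offset. Among the named genes that passed, HRK was lost with the block (adjusted p = 0.114, edgeR), and TRADD (0.0799) and TP73 (0.164) with the block and the offset. The count over all genes was 2235 with the offset, 3460 with the offset and without PD-L1 dish 3, 530 at an adjusted p under 0.01, and 545 to 3512 when each dish was left out. Over 170 member values under alternatives, 148 kept their direction and side of the threshold, 9 newly passed and 13 changed sign, of members whose log2 fold change was near 0. BCL2 was -0.0014 with the authors' size factors, -0.013 without the filter, -0.0015 with DESeq2, and -0.0025, -0.022, -0.067 and -0.010 without PD-L1 dish 1, PD-L1 dish 2, Vector dish 1 and Vector dish 2 (0.079 without Vector dish 3). BAK1 was 0.053 with the offset, 0.053 with the offset and block, 0.042 with the offset and without PD-L1 dish 3, and 0.0044, 0.0010 and -0.13 when PD-L1 dishes 1, 2 and 3 were left out. BAX was 0.068 and -0.029 when PD-L1 dishes 1 and 3 were left out. BIRC6 was -0.041 and 0.17 when PD-L1 dishes 2 and 3 were left out, and YWHAE -0.015 without PD-L1 dish 3 and -0.025 with the offset as well (0.060 without Vector dish 2). The cause was not tested.

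Counts in the lists moved as follows when each dish was left out: 0 to 3 further family members, 0 to 4 apoptosome genes, 0 to 1 inhibitor of apoptosis genes, 0 to 7 death receptor genes, 0 to 3 turnover genes, 0 to 4 of the transcription factor list and 0 to 1 membrane partners. The highest counts were without PD-L1 dish 3, where 21.6% of all tested genes passed. With the offset, where 14.1% of all tested genes passed, the list counts were 3, 1, 1, 6, 3, 1 and 1. The 1 gene of the transcription factor list was higher there, whereas without the offset the 1 that passed, TP73, was lower. With upper-quartile scaling, where 1394 genes passed in all, 1 inhibitor of apoptosis gene, 1 death receptor gene and 1 membrane partner passed. HRK, SFN and TP73, which belong to other lists, still passed there (adjusted p of 0.0266, 0.0372 and 0.0322, edgeR). BAD had the fewest counts of the members, 74 to 135 per dish, and the widest interval.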
